A study of Gasterosteus aculeatus with 79 samples.

Results

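The genes described here are stmn4l (ENSGACG00000000176) and VAV3 (ENSGACG00000002060), 2 of the 22456 genes in the count tables of a study of paternal care in male threespine sticklebacks. They were taken by their identifiers, whatever their level, and both passed the filter on low counts in each brain region. The study's list of orthologous groups pairs them with the mouse genes Stmn4 and Vav3. That list holds genes the study chose on these same diencephalon libraries, so the tests below are not independent evidence of a direction. For that choice the study required differential expression at a stage and again at a later one. Its false discovery rates came from permuted sample labels, unlike the adjusted p-values used here.

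Both genes encode proteins that act on the cytoskeleton, the scaffold of filaments that gives neurons their shape. Stathmins bind tubulin dimers and destabilize microtubules until kinases phosphorylate them. In mammals the stathmin encoded by Stmn4 is found mainly in the nervous system, where it is attached to membranes of the Golgi apparatus and of growing neurites. VAV proteins are signalling proteins that tyrosine kinases at an activated receptor phosphorylate, after which they set off the reorganization of actin filaments. In mammals VAV family members are known from immune cells, and VAV2 and VAV3 also act in axon guidance. Stathmins thus act on microtubules and VAV proteins on actin.

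Diencephalon and telencephalon of 40 adult males were dissected and their RNA was sequenced, which gave 79 libraries, because 1 control male sampled at 1 p.m. had no diencephalon library. The males were wild-caught from a freshwater population and were kept in separate tanks, and their age and strain are not given in the sources used here. Of the 8 groups of 5 males, 5 followed the care period. The earliest group, nest, comprised unmated nest holders, and the eggs group guarded clutches at day 4 after fertilization, both at 9 a.m. The 3 remaining groups covered day 5, when the clutch hatches: early (9 a.m.), mid (1 p.m.) and late (5 p.m.) hatching. The other 3 groups were control males, reproductively mature and without a nest, taken at 1 of these same 3 hours. Each stage was compared with the control group of its own hour, so nest, eggs and early hatching shared the 9 a.m. controls. For brevity the 5 care groups, nest included, are called caring males. No genetic change or drug is named for any male, and the 2 brain regions of a male carry his number.

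Between 15839679 and 37371744 reads per library were counted on genes. Levels are given as CPM, counts scaled to a common library total after TMM scaling within a region. Since the scaling takes no account of gene length, the level of stmn4l cannot be set against that of VAV3. The lane field of the labels holds 1 code for all 15 control males and 1 of the 25 caring males (male 65, late hatching). That code was read here as sequencing on multiple lanes, which the labels do not spell out. No other caring male carried a first index that a control male carried. Lane and index therefore cannot be told apart from care. The outside-gene share, the percentage of counted reads that fell in no annotated gene, was 49.3% ± 1.61 (SD, n = 25) in the diencephalon of caring males and 46.2% ± 2.0 (SD, n = 14) in that of control males, and 46.8% ± 1.64 (SD, n = 25) and 45.8% ± 1.6 (SD, n = 15) in telencephalon. Pituitary marker genes summed to 19477, 9411.5 and 5878.9 CPM in 3 telencephalon libraries, those of control males 39, 96 and 41, and to at most 403.39 CPM in every other telencephalon library. None of the markers listed for telencephalon, for diencephalon or for neurons could be matched to a row by name, so the dissected regions were not checked against them. Names were at hand only from the study's lists of differentially expressed genes, so a missing match says nothing about the level of a marker.

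By estimate, stmn4l was higher and VAV3 lower over the care period than in control males. In diencephalon stmn4l rose 1.33-fold over the mean of the 5 stages and VAV3 fell to 0.695 of the control level. In telencephalon stmn4l rose 1.28-fold, and VAV3 stood at 0.8 of the control level without passing the threshold of 0.01. No single stage passed it for either gene, and at most 2.82% of all genes passed at a stage. Over the mean, 4.84% of genes were called in diencephalon and 0.609% in telencephalon. Both diencephalon calls were lost after adjustment for the outside-gene share (adjusted p = 0.397 and 0.625 in edgeR). That of VAV3 was also lost when any of 4 control males was left out. The telencephalon call of stmn4l was lost without the 3 libraries rich in pituitary reads, or with pituitary and photoreceptor scores as covariates. In whole dissected tissue, a change in the number of cells that express a gene and a change in RNA per cell cannot be told apart.

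In the diencephalon at 9 a.m., stmn4l was at 130, 104, 168, 167 and 134 CPM in nest males, at 92.1, 148, 164, 119 and 139 CPM in eggs males and at 125, 138, 101, 108 and 119 CPM in males at early hatching. The 9 a.m. control males had 113, 76.3, 97.3, 109 and 96.4 CPM. In each of these comparisons some caring males lay inside the control range: 1 nest male, 1 eggs male and 2 males at early hatching were at or below 108 CPM, whereas the highest control male had 113 CPM. The estimated changes were 0.52 for nest (SE 0.131), 0.43 for eggs (SE 0.131) and 0.27 for early hatching (SE 0.131) on the log2 scale, with adjusted p-values of 0.0633, 0.118 and 0.791 in edgeR's quasi-likelihood test.

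For mid hatching, stmn4l in the diencephalon was at 109, 109, 121, 119 and 102 CPM, and its 4 control males at 1 p.m. had 83.3, 67.0, 84.7 and 105 CPM. Only 1 male at mid hatching was below the highest of these controls. For late hatching the values were 101, 123, 117, 126 and 106 CPM, against 81.5, 90.4, 84.6, 92.6 and 78.0 CPM in the 5 p.m. control males. Here every late male exceeded every control male, which was the case, in that direction, for 4.01% of the 18609 genes tested in diencephalon. The log2 changes were 0.40 at mid hatching (SE 0.140) and 0.42 at late hatching (SE 0.131), with adjusted p-values of 0.227 and 0.0307 in the same edgeR test. In a fit adjusted for the outside-gene share they were 0.22 and 0.047 (adjusted p = 0.708 and 0.937), and the estimates for nest, eggs and early hatching were 0.35, 0.27 and 0.18.

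Averaged over the 5 stages, the change of stmn4l in diencephalon was 0.41 on the log2 scale (95% interval 0.25 to 0.56) and passed the threshold (edgeR quasi-likelihood test, adjusted p = 0.00152). In this comparison 2.1% of the genes tested were called higher and 4.84% were called in either direction. Of 25 caring males, 24 were above the mean of their own control group. Caring males ranged from 92.1 to 168 CPM (median 119) and control males from 67.0 to 113 CPM (median 87.5), with 16 caring males above every control male and 8 of 14 control males below every caring male. In a fit adjusted for the outside-gene share the change was 0.21 (adjusted p = 0.397 in edgeR), and no gene of 18609 was called in that fit, in which 1705 genes had an unadjusted p under 0.05.

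**Figure D1:**
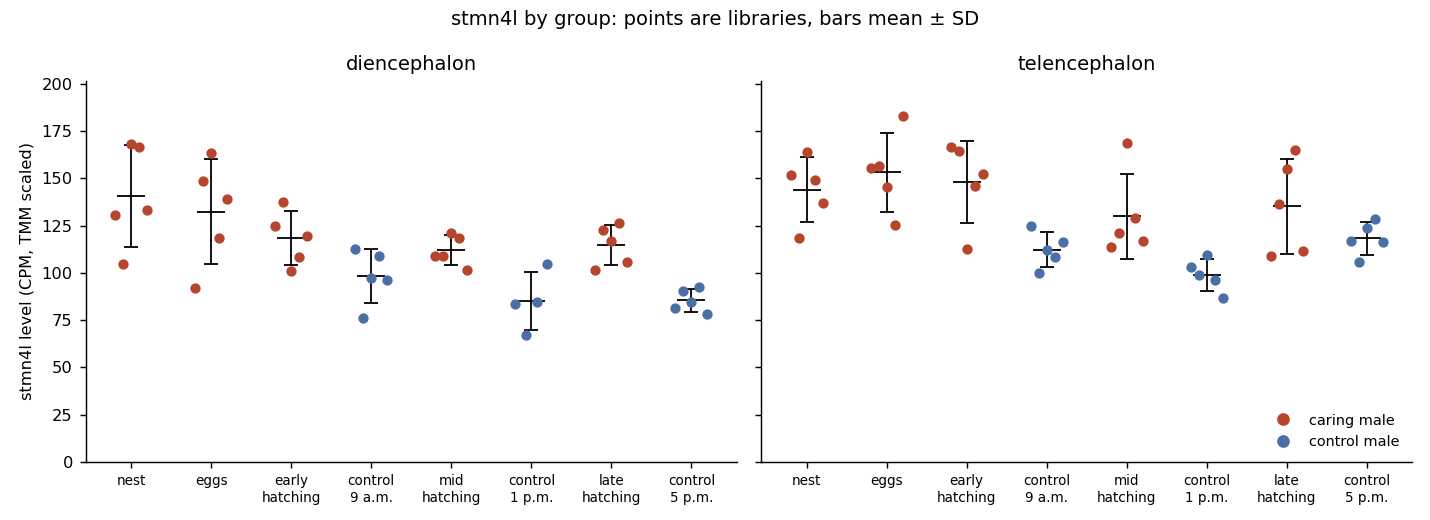
Level of stmn4l in CPM (vertical axis, from 0) in every library, by group, in diencephalon (left) and telencephalon (right). Points are single males, and black bars give the mean and SD of each group (n = 5, or n = 4 for the 1 p.m. control group in diencephalon). The means of the 5 care groups lie between 111.9 and 140.7 CPM in diencephalon and between 129.9 and 153.2 CPM in telencephalon, above all 3 control means of the same region.

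In the telencephalon at 9 a.m., stmn4l was at 152, 118, 164, 149 and 137 CPM in nest males, at 155, 157, 146, 125 and 183 CPM in eggs males and at 166, 164, 113, 146 and 152 CPM in males at early hatching. The 9 a.m. control males had 125, 99.7, 112, 109 and 116 CPM. All eggs males were above all control males, although the lowest eggs male and the highest control male, both near 125 CPM, were close together. Such a separation in that direction was seen for 0.929% of the 18397 genes tested in telencephalon. A single nest male, at 118 CPM, and a single male at early hatching, at 113 CPM, lay inside the control range.

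At mid hatching stmn4l in the telencephalon was at 114, 121, 169, 129 and 117 CPM, and the 1 p.m. control males had 103, 98.8, 110, 96.0 and 86.9 CPM. These groups did not overlap, as was the case in that direction for 0.37% of genes. At late hatching the males had 109, 136, 155, 165 and 112 CPM, and the 5 p.m. control males had 117, 106, 124, 128 and 117 CPM, so that 3 late males were above every control and the other 2 were within the control range. The log2 changes were 0.36 for nest, 0.45 for eggs, 0.40 for early, 0.39 for mid and 0.19 for late hatching (SE 0.118 to 0.119), with adjusted p-values in edgeR's quasi-likelihood test between 0.128 and 0.483.

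Over the mean of the 5 stages the change of stmn4l in telencephalon was 0.36 (95% interval 0.22 to 0.50) and passed the threshold (edgeR quasi-likelihood test, adjusted p = 0.00372), in a comparison in which 0.245% of genes were called higher and 0.609% in either direction. It was positive against the own control mean in 23 of 25 males, and 17 of the 25 were above the highest control male. The estimate was 0.32 without the 3 libraries rich in pituitary reads (adjusted p = 0.0382 in edgeR), and 0.34 with scores of pituitary and photoreceptor genes as covariates (adjusted p = 0.12). It was 0.34 without control male 39 alone (adjusted p = 0.0147), and 0.35 after adjustment for the outside-gene share (adjusted p = 0.0054).

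VAV3 ran the other way. In the diencephalon at 9 a.m. its level was 7.57, 18.6, 13.1, 11 and 14.4 CPM in nest males, 15.8, 15.7, 10.3, 12.9 and 7.02 CPM in eggs males and 15.0, 10.7, 15.1, 14.1 and 18.1 CPM in males at early hatching. The 9 a.m. control males had 12.6, 23.1, 15.5, 29.5 and 25.1 CPM, the widest spread of VAV3 among the control groups of this region (SD 6.97). Because control males 7 and 41 were as low as caring males, none of the 3 stages was separated from its controls, while the other 3 control males were above all 15 caring males of that hour. The log2 changes were -0.70 for nest (SE 0.227), -0.77 for eggs (SE 0.227) and -0.53 for early hatching (SE 0.226), with adjusted p-values of 0.141, 0.109 and 0.760 in edgeR's quasi-likelihood test.

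At mid hatching VAV3 in the diencephalon was at 23.8, 20.8, 15.2, 17.4 and 13.9 CPM, and its control males had 17.5, 19.2, 25.2 and 15.4 CPM. The 2 groups covered nearly the same range, with a log2 change of -0.08 (95% interval -0.57 to 0.40). At late hatching the males had 16.2, 12.2, 14.0, 13.6 and 18.6 CPM and the 5 p.m. control males had 20.4, 21.6, 16.3, 28.1 and 21.5 CPM. Only the late male at 18.6 CPM, which was male 65, exceeded the lowest of these controls. The log2 change at late hatching was -0.53 (SE 0.226), with an adjusted p of 0.112 in edgeR.

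The change of VAV3 over the mean of the 5 stages in diencephalon was -0.53 on the log2 scale (95% interval -0.78 to -0.27) and passed the threshold (edgeR quasi-likelihood test, adjusted p = 0.00603), where 2.75% of genes were called lower. Below the mean of their own controls were 23 of 25 caring males. Their levels ran from 7.02 to 23.8 CPM (median 14.4) and those of control males from 12.6 to 29.5 CPM (median 21.0), with 6 caring males below every control male and 4 control males above every caring male. The call was lost when any of control males 39, 69, 74 or 91 was left out (changes of -0.50, -0.44, -0.48 and -0.49, adjusted p between 0.0108 and 0.03 in edgeR). It was also lost after adjustment for the outside-gene share (-0.24, adjusted p = 0.625), and in that fit the estimates at mid and late hatching were positive (0.19 and 0.04).

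**Figure D2:**
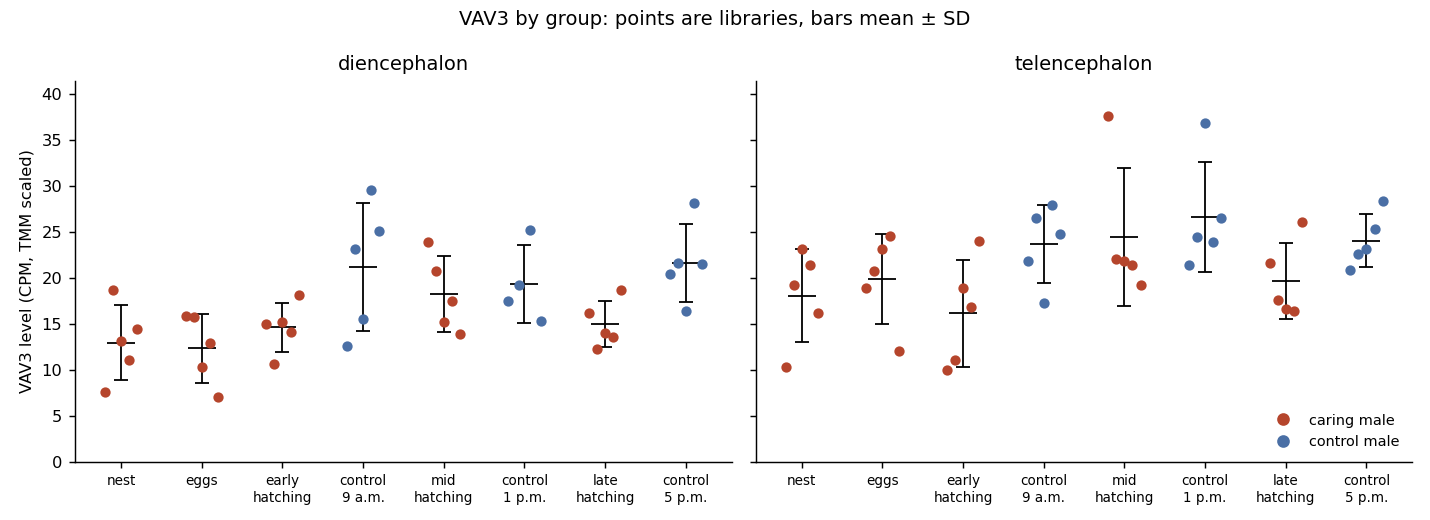
Level of VAV3 in CPM (vertical axis, from 0) in every library, by group, in diencephalon (left) and telencephalon (right). Points are single males, and black bars give the mean and SD of each group (n = 5, or n = 4 for the 1 p.m. control group in diencephalon). In diencephalon the care means lie between 12.34 and 18.23 CPM and the control means between 19.31 and 21.6 CPM, whereas in telencephalon the care means, from 16.14 to 24.41 CPM, reach into the control means, from 23.64 to 26.62 CPM.

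In the telencephalon VAV3 was at 10.3, 19.2, 23.1, 21.4 and 16.2 CPM in nest males, at 18.9, 20.8, 23.1, 24.6 and 12.1 CPM in eggs males and at 9.94, 11, 18.9, 16.9 and 24 CPM in males at early hatching. The 9 a.m. control males had 21.8, 26.5, 17.3, 27.9 and 24.8 CPM. The 3 care groups overlapped with these controls, and 6 of these males, at 10.3, 16.2, 12.1, 9.94, 11 and 16.9 CPM, were below the lowest control of any hour. Male 33 (nest) and male 88 (eggs) were also the lowest of their groups in diencephalon, at 7.57 and 7.02 CPM.

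At mid hatching the telencephalon values of VAV3 were 37.6, 22.1, 21.8, 21.4 and 19.2 CPM, against 21.4, 24.4, 36.8, 23.9 and 26.5 CPM in the 1 p.m. control males. A single high male in each group, at 37.6 and 36.8 CPM, stood apart from the rest. At late hatching the males had 21.6, 17.5, 16.6, 16.4 and 26.0 CPM and the 5 p.m. control males had 20.8, 22.6, 23.1, 25.3 and 28.3 CPM, and 3 late males were below every control male. Across the 5 stages the log2 changes ran from -0.55 (early hatching) to -0.13 (mid hatching), with adjusted p-values between 0.333 and 0.980 in edgeR's quasi-likelihood test.

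The mean change of VAV3 in telencephalon, -0.32 (95% interval -0.57 to -0.07), did not pass the threshold (edgeR, adjusted p = 0.147), in a comparison in which 0.364% of genes were called lower. It lay between -0.38 and -0.28 when each male in turn was left out, and 21 of 25 caring males were below their own control mean. Of the caring males 8 were below every control male and 1 was above every control male.

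The counts of single-stage calls differed from what the unadjusted tests gave. At an unadjusted p under 0.05 in edgeR, stmn4l differed from its controls at 5 of 5 stages in diencephalon and at 4 of 5 in telencephalon, and VAV3 at 4 of 5 and at 1 of 5. In diencephalon 15.5% of all genes tested were under that p for nest, 17.3% for eggs, 6.29% for early, 13.9% for mid and 28.3% for late hatching, and in telencephalon 14.4%, 11.4%, 11.1%, 5.57% and 14.0%. After adjustment over all genes none of the 20 comparisons passed 0.01 in edgeR, and none did in DESeq2, where the lowest adjusted p was 0.0122. Of the genes tested in diencephalon, 0.0537% passed for nest, 0.0322% for eggs and 2.82% for late hatching. In telencephalon 0.0109% passed for nest and 0.00544% for eggs, and 0.0% passed for the remaining stages of either region.

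**Figure D3:**
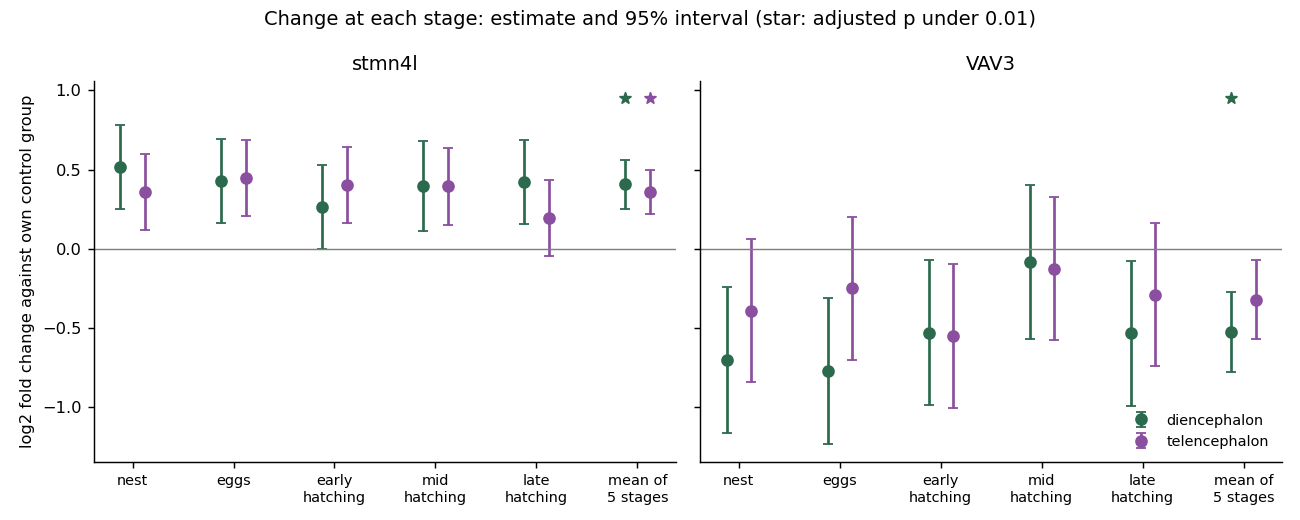
Log2 fold change of stmn4l (left) and VAV3 (right) against the control group of the same hour (vertical axis), at each stage and for the mean of the 5 stages (horizontal axis), in diencephalon (green) and telencephalon (purple). Points are edgeR estimates, bars are 95% intervals and stars mark an adjusted p under 0.01, and all stage estimates of stmn4l are above 0 (0.19 to 0.52) and those of VAV3 below 0 (-0.77 to -0.08).

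Ordered by mean level, the 5 care groups came before the 3 control groups for stmn4l in each region. In diencephalon the order was nest (140.7 CPM), eggs (132.4), early (118.3), late (114.7) and mid hatching (111.9), then the controls of 9 a.m. (98.37), 5 p.m. (85.42) and 1 p.m. (84.9). In telencephalon it was eggs (153.2 CPM), early (148.3), nest (144.1), late (135.3) and mid hatching (129.9), then the controls of 5 p.m. (118.3), 9 a.m. (112.3) and 1 p.m. (98.87). VAV3 was highest in the controls of 5 p.m. in diencephalon (21.6 CPM) and of 1 p.m. in telencephalon (26.62 CPM), and lowest with eggs (12.34 CPM) and at early hatching (16.14 CPM), and in telencephalon mid hatching (24.41 CPM) came between the controls of 1 p.m. and of 5 p.m. (24.02 CPM). Of 28 pairs of neighbours in these 4 orders, 27 differed by less than the larger of their SDs. The exception was stmn4l in telencephalon between the controls of 9 a.m. and 1 p.m., and the values of every pair overlapped. Within groups the coefficient of variation was 7.06% to 21.0% for stmn4l and 12.0% to 36.0% for VAV3.

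Whether the change differed between the 3 morning stages and the hatching afternoon was tested directly. For stmn4l the difference (morning minus afternoon) was -0.01 in diencephalon (95% interval -0.30 to 0.28) and 0.11 in telencephalon (95% interval -0.15 to 0.37). For VAV3 it was -0.36 (95% interval -0.86 to 0.14) and -0.19 (95% interval -0.67 to 0.30). Leaving out each male moved the values of VAV3 between -0.50 and -0.21 in diencephalon and between -0.28 and -0.08 in telencephalon, and adjustment for the outside-gene share gave -0.59 in diencephalon (adjusted p = 0.364 in edgeR). Without that adjustment the adjusted p-values lay between 0.608 and 0.988 in edgeR's quasi-likelihood test. The change of neither gene was thus shown to differ between the 3 morning stages and the hatching afternoon. For VAV3 the intervals still hold differences as large as its mean change. Single stages were not tested against each other. In that comparison edgeR called 0 genes in either region, with 1974 and 1999 genes at an unadjusted p under 0.05, and DESeq2 called 5 in each.

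The hour of the day was examined in the control males alone. Against 9 a.m., stmn4l was lower at 1 p.m. by estimate in both regions (-0.21 and -0.18 on the log2 scale), and at 5 p.m. it was -0.20 in diencephalon and 0.08 in telencephalon. For VAV3 the 4 estimates were between -0.13 and 0.17. None passed the threshold (edgeR, adjusted p between 0.506 and 0.998), and the 95% intervals reached 0.50 on the log2 scale for stmn4l and 0.62 for VAV3 in size. Between 9 a.m. and 5 p.m. 0.0161% of genes in diencephalon and 0.00544% in telencephalon were called.

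Both genes had a lower level in diencephalon than in telencephalon. In the 39 males with both libraries, stmn4l was at 111.5 CPM ± 24.6 (SD) in diencephalon and 130.9 CPM ± 23.9 (SD) in telencephalon, and lower in diencephalon in 34 of 39 males. VAV3 was at 16.83 CPM ± 5.19 (SD) and 21.49 CPM ± 5.91 (SD), and lower in diencephalon in 35 of 39 males. These levels were scaled within each region, and a joint fit of all 79 libraries gave log2 differences of -0.26 for stmn4l (SE 0.0451, adjusted p = 5.29e-07) and -0.39 for VAV3 (SE 0.0822, adjusted p = 2.74e-05) in edgeR's quasi-likelihood test. In that fit 28.5% of 18958 genes were called lower and 58.5% were called in either direction.

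The change with care was not shown to differ between the regions. For stmn4l the diencephalon change minus the telencephalon change was 0.06 (95% interval -0.14 to 0.26) and for VAV3 it was -0.19 (95% interval -0.56 to 0.18), with adjusted p-values of 0.973 and 0.891 in edgeR. The call of VAV3 in diencephalon alone is therefore not shown to be a difference between regions. No gene was called in this comparison by edgeR, with 1584 at an unadjusted p under 0.05, and 31 were called by DESeq2. With the male as a block (limma) 11 genes were called, with 2681 at an unadjusted p under 0.05, and neither member was among them (0.07 and -0.14, adjusted p = 0.769 and 0.686).

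The ratio of stmn4l reads to VAV3 reads within a library combines both differences. It is given as a description, and the ratio has no scale across genes because their lengths were not used. Control males had 3.29 to 8.96 reads of stmn4l per read of VAV3 in diencephalon (median 3.92) and caring males 4.56 to 19.8 (median 8.32). In telencephalon the ratio was 2.97 to 6.5 (median 4.68) in control males and 3.03 to 16.7 (median 7.09) in caring males. Above the highest control male were 11 of 25 caring males in diencephalon and 14 of 25 in telencephalon, and the only control male of diencephalon above 7 was male 7, which also had the highest stmn4l and the lowest VAV3 of the control males there.

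Single males were then compared through their deviations from the mean log2 level of their own group, which removes the difference between care and control. In telencephalon the deviations of stmn4l and VAV3 were negatively related (Pearson r = -0.416, permutation p = 0.00724, Spearman's coefficient = -0.43, permutation p = 0.00558, n = 40, adjusted p = 0.0116 and 0.00893 over the 8 relations computed). Without the 2 males farthest from the median of stmn4l, r was -0.404. In diencephalon r was -0.347 (permutation p = 0.0304) and Spearman's coefficient was -0.33 (permutation p = 0.0405, n = 39, adjusted p = 0.0405 and 0.054). The permutations did not allow for the 8 group means taken out, so these p-values, here and below, are likely too small. With values this near 0.05, the relation in diencephalon is not shown. Without males 60 and 54 r in diencephalon was -0.205 (permutation p = 0.225), so that the relation there was not shown to hold without those males. The lane code split the males almost as care did. The 24 males read as sequenced on single lanes were all caring males, and those read as on multiple lanes were the control males and 1 caring male. Among the 24 males r was -0.414 in diencephalon and -0.474 in telencephalon, and among the others it was -0.226 (n = 15) and -0.181 (n = 16). Lane and care are not separated in these sets, here and below, and whether r differed between the sets was not tested.

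**Figure D4:**
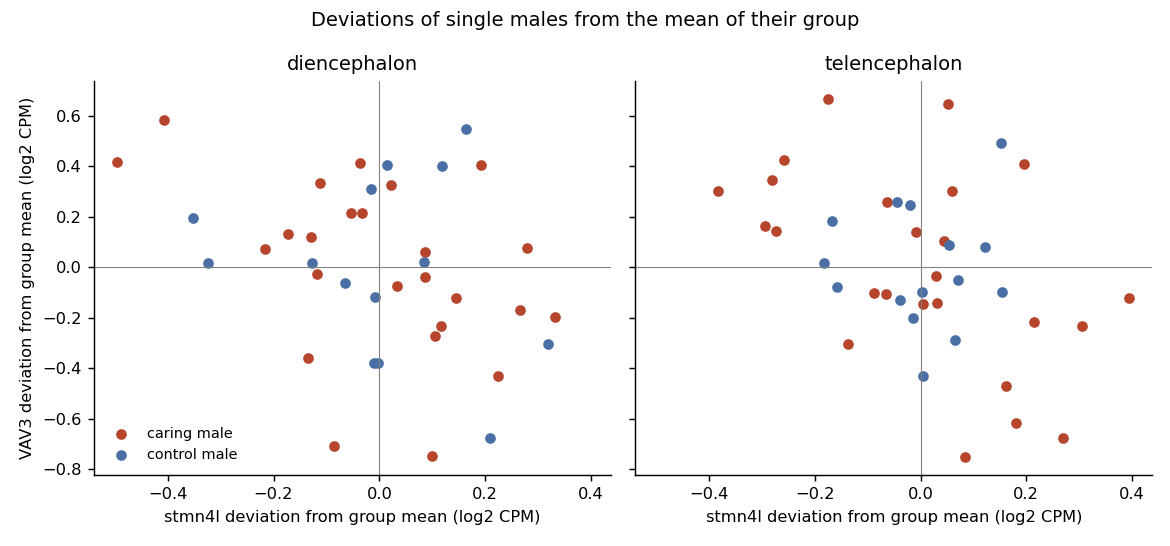
Deviation of VAV3 (vertical axis) against that of stmn4l (horizontal axis) from the mean log2 CPM of the male's own group, in diencephalon (left, n = 39) and telencephalon (right, n = 40). Each point is a male, caring or control, and 24 males in diencephalon and 27 in telencephalon have deviations of opposite sign.

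The same males tended to stand out in both regions, which was not particular to these genes. Over all genes of the joint fit, the consensus correlation between the 2 libraries of a male was 0.37 (limma), another measure than r. For VAV3 the deviations in diencephalon and telencephalon were related with r = 0.656 (permutation p = 2e-05) and Spearman's coefficient = 0.633 (permutation p = 2e-05, n = 39, adjusted p = 0.00016 for each). Without males 88 and 33, the lowest of the eggs and nest groups, r was 0.541. It was 0.661 among males on single lanes, all of them caring, and 0.682 among those on multiple lanes, all but 1 of them control males. For stmn4l r was 0.458 (permutation p = 0.00363) and Spearman's coefficient was 0.536 (permutation p = 0.00058, n = 39, adjusted p = 0.00726 and 0.00232). For stmn4l r was 0.469 without the 2 farthest males and 0.558 among the caring males on single lanes. Among the males on multiple lanes, nearly all controls, it was 0.178, and the relation was not shown to hold there.

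Levels of both genes moved with the outside-gene share in the diencephalon. In deviations from group means, r was 0.589 for stmn4l (permutation p = 4e-05, Spearman's coefficient = 0.467, permutation p = 0.00286) and -0.526 for VAV3 (permutation p = 0.00068, Spearman's coefficient = -0.48, permutation p = 0.00205), each with n = 39. The adjusted p-values of r were 0.00016 and 0.00181, and those of Spearman's coefficient were 0.00572 and 0.00547. Within males on single lanes, all of them caring, r was 0.717 and -0.675. On multiple lanes, where all but 1 were control males, r was 0.349 and -0.289, and without the 2 farthest males it was 0.449 and -0.499. In telencephalon r was 0.114 for stmn4l and -0.127 for VAV3 (n = 40, permutation p = 0.482 and 0.436), Spearman's coefficient was 0.164 and -0.028 (permutation p = 0.312 and 0.861), and the lowest adjusted p was 0.357. Without the 2 farthest males these were 0.049 and -0.029, on single lanes 0.106 and -0.327, and on multiple lanes 0.164 and 0.427. What sets this share, and its part in the difference between caring and control males, was not tested beyond the adjusted fits given above.

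**Figure D5:**
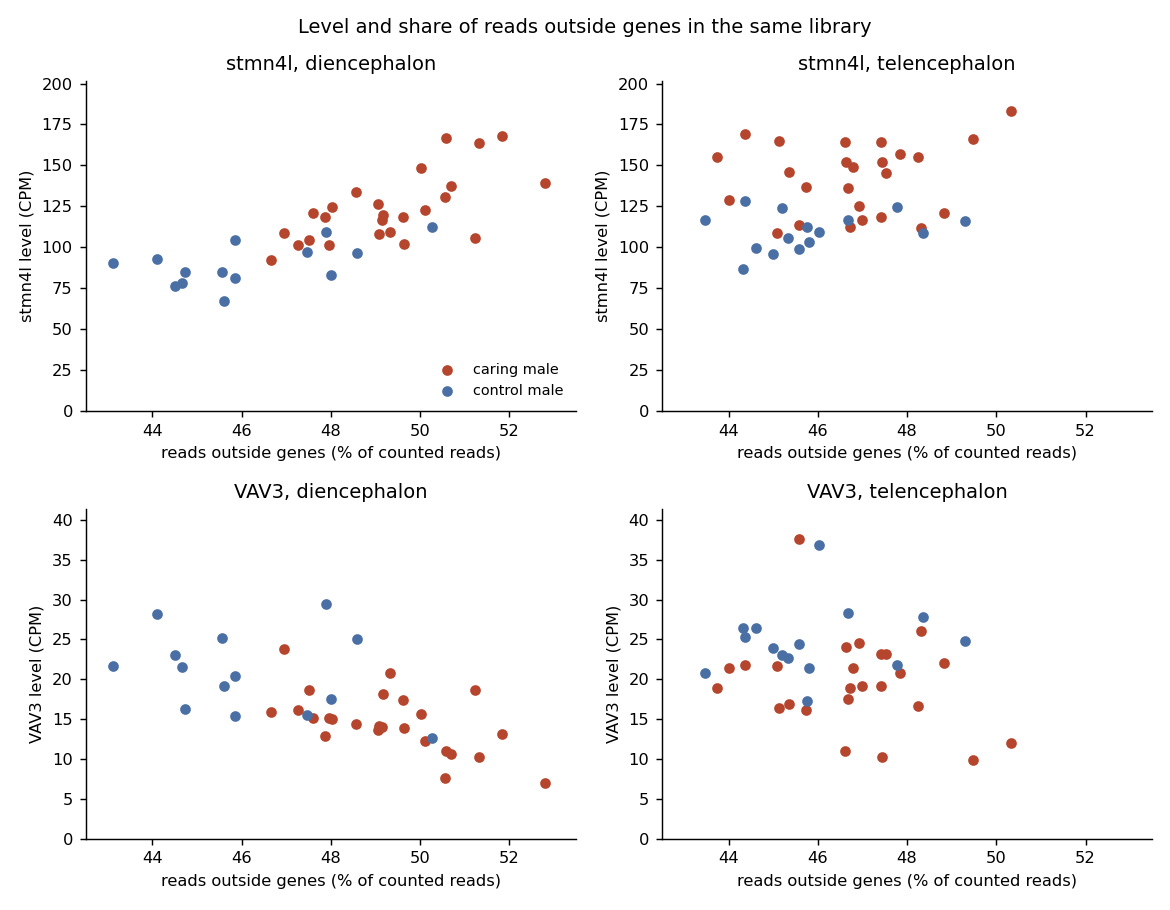
Level in CPM (vertical axis) of stmn4l (top) and VAV3 (bottom) against the outside-gene share of the same library, in percent of counted reads (horizontal axis), in diencephalon (left) and telencephalon (right). Each point is a library of a caring or control male, and in diencephalon, where the shares run from 43.1% to 52.8%, caring males have the higher shares, with means of 49.3% against 46.2%.

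Male 65 was the caring male with the lane code of the controls. He had 106 CPM of stmn4l and 18.6 CPM of VAV3 in diencephalon and 112 CPM and 26.0 CPM in telencephalon. In each region he had the second lowest stmn4l and the highest VAV3 of the 5 late males. His stmn4l was above the 5 p.m. controls in diencephalon and within them in telencephalon, and his VAV3 was within them in both. Leaving him out gave mean changes over the 5 stages of 0.41 and 0.37 for stmn4l and of -0.54 and -0.35 for VAV3 in diencephalon and telencephalon. The part of lane and index in the differences between caring and control males was not tested.

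Other genes of the same machinery could be followed only in part, since names were at hand for 681 of the 22456 identifiers. These names came from the study's lists of differentially expressed genes, drawn partly from these same libraries. The genes matched by name are therefore not a neutral sample of the machinery. Of the stathmin family, the VAV family, the microtubule proteins of neurons and the receptors and kinases upstream of VAV, none could be matched by name. Matched from the other cytoskeleton lists were itsn2b, als2a, rac2, rnd2 and pak4. None of these 5 passed 0.01 at any stage or averaged over the 5 stages in either region, and the lowest adjusted p-values of the average were 0.0262 in diencephalon and 0.419 in telencephalon (edgeR's quasi-likelihood test). Of all genes tested, 4.84% in diencephalon and 0.609% in telencephalon passed on average, and at most 2.82% at a stage. With shares this low, 5 genes without a call do not show that the other cytoskeleton genes were unchanged.

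Markers of other cell types were compared over the same mean of the 5 stages. In that comparison 2.75% of all genes tested in diencephalon and 0.364% in telencephalon were called lower. Markers could be matched only if named on the study's lists of differentially expressed genes, drawn partly from these same libraries. The shares of markers called are not independent of that choice and cannot be read against those of all genes. In diencephalon 1 of 5 oligodendrocyte markers was called lower, mag, a myelin adhesion protein (log2 change -0.37, adjusted p = 0.00691 in edgeR), with summed levels of 510 to 841 CPM in caring and 542 to 1070 CPM in control males. In that region none of the 8 pituitary markers passed, and their summed levels were 2.39 to 3780 CPM in caring males and 3.36 to 4930 CPM in control males. In telencephalon 2 of 8 pituitary markers were called lower in caring males. Summed levels of the 8 there were 0.825 to 403 CPM (median 8.38) in caring males and 0.963 to 19477 CPM (median 9.1) in control males. Of the photoreceptor markers reported here, 11 of 16 tested in telencephalon were called lower in caring males (median log2 change -3.44). Their summed levels were 3.09 to 137 CPM (median 5.92) in caring and 2.34 to 658 CPM (median 7.39) in control males, so that the medians lay close together. None of 17 was called in diencephalon, where the sums were 6.76 to 579 CPM and 8.56 to 127 CPM. Of microglia and leukocyte markers lcp1 and coro1a were matched and neither was called, with summed levels of 51.9 to 564 CPM in caring and 56.1 to 589 CPM in control males in diencephalon and of 64.7 to 568 CPM and 55.9 to 643 CPM in telencephalon. Neither of the 2 matched progenitor markers, sox2 and hes5, was called in either region, and none of the 5 oligodendrocyte markers was called in telencephalon. Up to 5 of the 8 pituitary markers were at 0 in a telencephalon library. The part of these cells in the levels of stmn4l and VAV3 was not tested apart from the fits given above.

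Among all genes tested, the gene whose log2 level was most like that of stmn4l was ENSGACG00000003134 in diencephalon (r = 0.855 over 39 libraries) and ENSGACG00000004108 in telencephalon (r = 0.716 over 40 libraries). For VAV3 it was ENSGACG00000019462 in diencephalon (r = 0.875) and ENSGACG00000013100 in telencephalon (r = 0.789). Of the 3 closest genes per region and member only dusp5 (ENSGACG00000018713), a phosphatase of MAP kinases, had a name. It was the third closest to stmn4l in telencephalon (r = 0.707). Only genes on the study's lists of differentially expressed genes could have a name here. Between stmn4l and VAV3 themselves r was -0.641 in diencephalon and -0.606 in telencephalon. These libraries share groups, depth and lanes, which enter the likeness, so the values are descriptive.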

How the data were processed

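The authors aligned single-end reads with TopHat2 2.0.8, which uses Bowtie, to a stickleback genome of Ensembl with repeats masked, counted them on genes with HTSeq 0.6.1 and deposited whole-number counts per gene without normalization (base calling by CASAVA 1.8.2 per the labels). Reads in several genes (at most 0.0285% of counted reads) were left out by the authors, and the kit keeps strand. The study names default settings for its programs, which in HTSeq count by strand, but no strand setting of its own, and the strand counted was not checked here. Rows for reads outside genes stayed out of library totals.

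Groups, hours and male numbers came from the labels. A gene was tested in a region if 5 or more of its libraries reached 0.5 CPM. edgeR 4.0.16 on R 4.3.3 fitted the 8 groups of each region together after TMM scaling, and its quasi-likelihood tests gave p-values, Benjamini-Hochberg adjusted over all genes of a region, with a threshold of 0.01. Each SE of that fit was derived from the estimate and its quasi-likelihood F statistic. Intervals of 95% come from the estimate, that SE and the t distribution. The mean of the 5 stages weights each stage equally. A joint fit of the 79 libraries compared regions. The male number pairs the regions of 1 animal: over 39 males and 18958 genes, deviations of a male's libraries correlated at 0.455 on average (lowest 0.233), and 38 of 39 correlated best with their own number. Correlations used log2 CPM with a prior count of 2 and 100000 permutations, two-sided, with an alpha of 0.05. The permutations did not allow for the group means removed, which likely makes their p-values too small.

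The members and gene lists were chosen with earlier results of these data known. Named genes are the 2 members, mag, genes among the 3 closest to each member, and the matched cytoskeleton, leukocyte and progenitor genes. None of these cytoskeleton, leukocyte and progenitor genes passed the threshold. Names come from the study's supplementary lists of differentially expressed genes, in paternal care and after a territorial challenge, and of such genes in orthologous groups shared with mouse. A gene without a name on these lists could not be matched. The level of 1 listed photoreceptor gene is not reported here and is left out of the photoreceptor counts and sums. No sequence or coordinates were used. Each replicate is a separate male.

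Alternatives were RLE scaling, no filter, DESeq2 1.42.0, a likelihood ratio test, the outside-gene share and pituitary and photoreceptor scores as covariates, a fit of the 2 groups alone, the male as a block (limma 3.58.1), a prior count of 0.5 and leaving out each male. Leaving out 3 telencephalon libraries rich in pituitary reads, and relating levels to the outside-gene share, were chosen after seeing the data. Scripts were tested on simulated counts. Tables and figures used Python 3.11.15, numpy 2.4.6, scipy 1.17.1, pandas 2.3.3 and matplotlib 3.10.9.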

Additional observations from a re-analysis of the deposited data

Results flagged for a closer look

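Of 32 groups of 4 or 5 males examined for 1 value far from the others, 2 had such a male, and chance gives about 1 in 20 groups. In the telencephalon at mid hatching, male 81 had 169 CPM of stmn4l, with a gap to the next male of 0.729 of the group's range. In the same group male 73 had 37.6 CPM of VAV3, with a gap of 0.842 of the range. In the diencephalon of male 73 VAV3 was at 23.8 CPM, the highest of the mid hatching males there, and stmn4l of male 81 was at 121 CPM, also the highest.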

How the results depend on the processing

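The 40 comparisons of the members kept their direction and their side of the threshold under RLE scaling, without the filter on low counts and with DESeq2, as did the 36 within regions under the likelihood ratio test and the 20 at single stages in a fit of the 2 groups alone. With the replicate block (the male as a block) the level differences between regions were -0.27 and -0.38, and the differences of the changes 0.07 and -0.14, for stmn4l and VAV3, and the block changed no call. After adjustment for the outside-gene share the mean changes in diencephalon lost their calls (0.21 for stmn4l and -0.24 for VAV3). In that fit these estimates in diencephalon turned: VAV3 at mid hatching 0.19 and at late hatching 0.037, stmn4l morning minus afternoon 0.13, and control 5 p.m. against 9 a.m. 0.061 for stmn4l and -0.33 for VAV3. In telencephalon VAV3 at control 5 p.m. against 9 a.m. turned to -0.018, and to -0.0396 without the 3 libraries rich in pituitary reads. With pituitary and photoreceptor scores stmn4l morning minus afternoon in diencephalon was 0.024. The mean change of stmn4l in telencephalon lost its call with these scores (0.34) and without the 3 libraries (0.32). The cause was not tested. Leaving out the 2 farthest males, the correlation of the members in diencephalon was -0.205.

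Leaving out each male gave mean changes of 0.36 to 0.44 for stmn4l and -0.61 to -0.44 for VAV3 in diencephalon, where 4 of 39 omissions ended the call of VAV3, and 0.34 to 0.38 for stmn4l in telencephalon, where 1 of 40 ended it. Ranges that crossed 0 were -0.087 to 0.046 for stmn4l morning minus afternoon in diencephalon, -0.20 to 0.0704 and -0.33 to 0.021 for VAV3 at mid hatching in diencephalon and telencephalon, -0.28 to 0.018 for VAV3 at control 1 p.m. against 9 a.m. in diencephalon, and -0.11 to 0.18 and -0.0698 to 0.10 for VAV3 at control 5 p.m. against 9 a.m. in diencephalon and telencephalon. None of these was called.

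The number of genes called over the mean of the 5 stages was 901 in diencephalon and 112 in telencephalon. It was 1537 and 265 with DESeq2, 0 in diencephalon after adjustment for the outside-gene share, and in telencephalon 235 with the likelihood ratio test, 0 with the marker scores (2070 at an unadjusted p under 0.05) and 66 without the 3 libraries. VAV3 was counted with 120 to 853 reads per library and stmn4l with 1417 to 4547, so counting error is larger for VAV3.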
